A study of Mus musculus with 16 samples.

Results

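The p53 and DNA repair genes described here are 52 genes of damage sensing, p53 signalling and repair, chosen by name as a possible mark of space radiation. All 52 were found among the 25905 genes of the deposited table of gene means. Retinas came from the right eyes of male wild-type C57BL/6 mice labelled 10-week old, and each retina gave 1 library. Of these mice, 8 were from spaceflight aboard the International Space Station and 8 from a ground control group kept in the same housing hardware. The paper states that mice of this age were flown, and that eyes were collected after the return to Earth. The level of each gene is the authors' mean normalized count, the mean over all 16 libraries of read counts divided by a size factor that evens out sequencing depth. It pools both groups, and the counts of single libraries carry codes that match no label and were not used, so no level is split by flight and no value has a replicate error. Each library is a whole retina, so a low level in all cells and a high level in few cells cannot be told apart.

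Ionizing radiation breaks DNA strands and oxidizes bases. Breaks are sensed by the kinases Atm and Atr, which stabilize the transcription factor p53. It then switches on genes for cell-cycle arrest, repair and death, among them that of its own inhibitor Mdm2. Neurons of the adult retina no longer divide, and non-dividing cells rejoin breaks mainly by end joining, because homologous recombination uses the copied sister chromatid.

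The tissue label was checked first. Rod genes were abundant, with mean normalized counts of 154477 for rod transducin (Gnat1) and 13374.5 for the rod phosphodiesterase subunit Pde6b. All 4 genes of dividing cells (Mki67, Ccnb1, Top2a and Cdk1) lay between 1.14 and 3.36. Lens genes ran from 98.7 (Bfsp1) to 898 (Cryaa). Pigment epithelium genes ran from 2.72 for Best1, under the cutoff of 10, over 121 for Rpe65 and 204 for Tyrp1 to 540 for Ttr. The part of lens and pigment epithelium in the levels below was not tested.

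Reads of the p53 pathway were unevenly represented at its centre. Trp53, the gene of p53 itself, had a mean normalized count of 0.0699, which sums to 1.12 normalized counts over all 16 libraries together. Cdkn1a, the cell-cycle inhibitor p21 and the most used readout of p53 activity, had a mean of 0.26 and a sum of 4.16. Both were therefore close to absent from the table, while Mdm2, the ubiquitin ligase that p53 induces and that degrades it, had a mean of 713. A change of Trp53 or Cdkn1a between groups would not be detectable at these counts.

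A mean normalized count above 10 was reached by 46 of the 52 members (88.5%), beside 47.8% of all listed genes. The counts behind the table were made per RefSeq transcript and not per gene. Of the 52 members, 44 were counted under 1 accession and 8 under 2 accessions (Trp53, Cdkn1a, Sesn1, Brca2, Lig1, Ung, Mutyh and Ercc1). In the first set 43 of 44 genes had a mean normalized count above 10, and the median was 247. In the second set 3 of 8 did, the median was 0.339, and the highest value was 39.1 for Sesn1. All 5 members at or under 1 (Trp53, Ung, Mutyh, Cdkn1a and Brca2) were counted under 2 accessions.

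**Figure D1:**
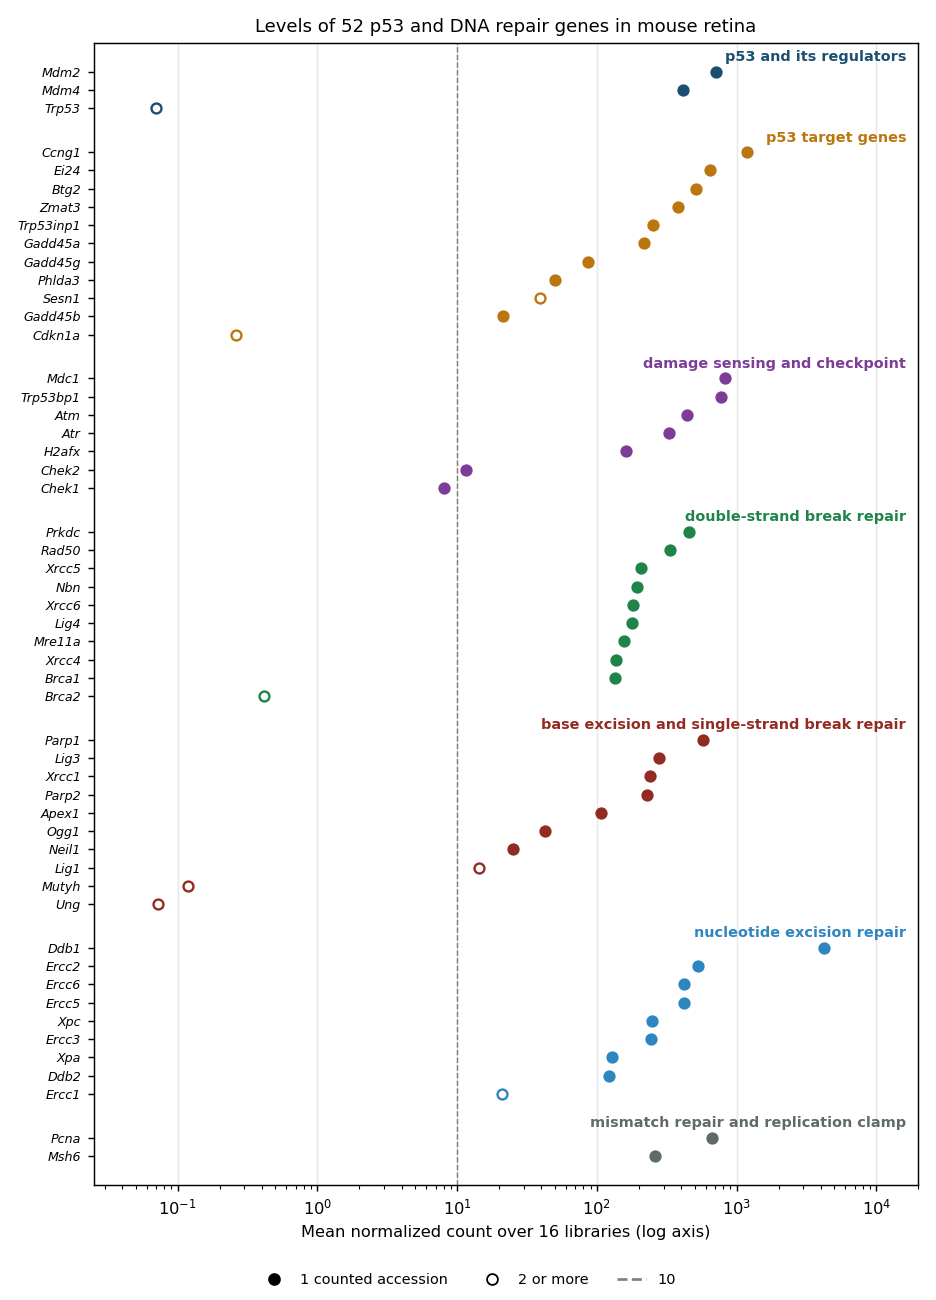
Mean normalized count over 16 libraries (log axis, not divided by length) of the 52 genes, grouped by role. Filled points are genes counted under 1 RefSeq accession and open points genes counted under 2, and 43 of 44 filled points but 3 of 8 open points lie right of the dashed line at 10.

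The same split ran through the whole table. Of the genes listed with curated (NM) accessions alone, 61.1% of 16959 genes with 1 accession had a mean normalized count above 10, against 30.5% of 2071 genes with 2 and 25.5% of 915 genes with 3 or more. Among genes with 2 accessions, the level went with how much exon sequence belonged to 1 accession alone. With under 100 such bases, 8.72% of 367 genes were above 10. With 1000 or more, 55.6% of 700 genes were. Genes whose 2 accessions matched the same annotated transcript were set to 0 such bases and counted in the group under 100. Across 1954 genes with 2 accessions the rank correlation of these bases with the mean normalized count was 0.485 (Spearman), and across 16688 genes with 1 accession that of the full exon length was 0.501. These are descriptions over genes that share the same libraries.

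**Figure D2:**
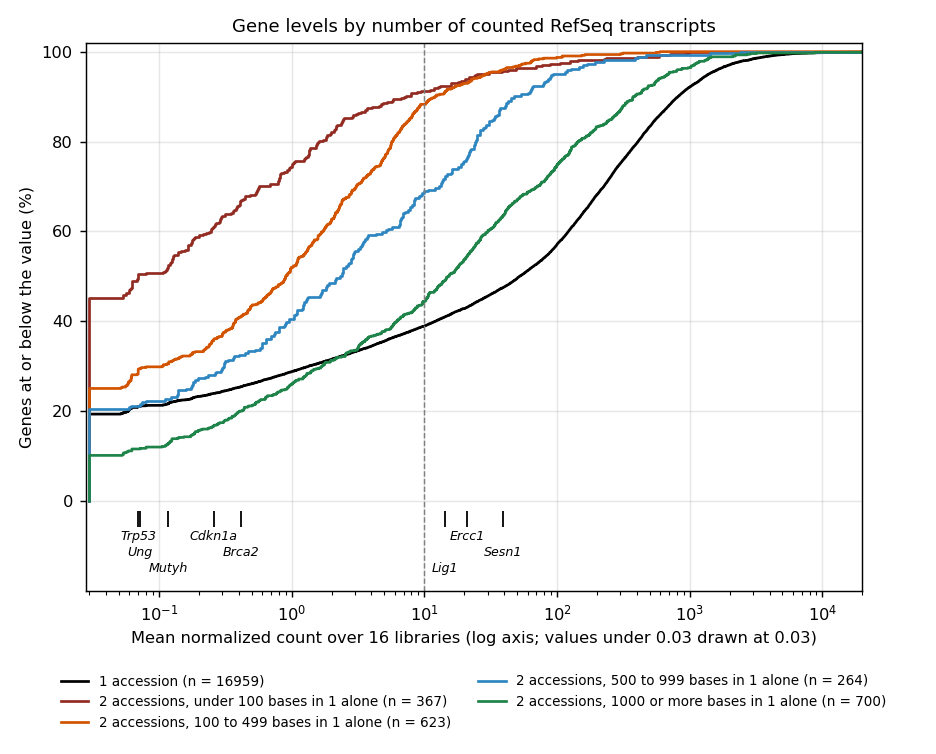
Cumulative share of genes (%) against mean normalized count over 16 libraries (log axis) for genes with curated accessions only. The curve of genes with 2 accessions and under 100 bases in 1 alone lies left of that of genes with 1 accession, and the ticks mark the 8 members counted under 2 accessions, from Trp53 at 0.0699 to Sesn1 at 39.1.

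The amount of sequence that tells the accessions of one gene apart differed between the 8 members. In Trp53 it was 96 of 1867 exon bases, in Brca2 209 of 10725 and in Lig1 343 of 3300. Both accessions of Mutyh matched the same annotated transcript, so its number was set to 0 and how they differ was not measured. More was left in Ung (635 of 2378), Ercc1 (1036 of 1793), Cdkn1a (1237 of 2036) and Sesn1 (1523 of 3966). Within these stretches the coding bases numbered 52 in Trp53, 213 in Ung, 225 in Ercc1 and 381 in Sesn1, and 0 in Cdkn1a, Brca2 and Lig1. The mean normalized counts of the 8 did not follow one order with these bases. Sesn1 and Ercc1 had means of 39.1 and 20.9, but Lig1, with 0 such coding bases, had 14.2. Ung had a mean of 0.0722, and Cdkn1a, with more such exon bases than Ercc1, had 0.26. Whether reads shared by both accessions were left out of the counts was not tested.

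The coding part of the sequences that separate the accessions is shown for Trp53, Ung and Sesn1, because a read tells the accessions apart only where they differ. It is 52 of the 96 separating exon bases in Trp53, 213 of 635 in Ung and 381 of 1523 in Sesn1. The remaining separating bases are not shown. They were read from GENCODE M21 transcripts on GRCm38, plus strand. Capitals mark coding bases held by 1 accession alone. In Trp53 the stretch comes from alternative splicing and lies at chr11:69591254-69591305, shown after 20 shared bases, and the other transcript continues from the same 20 bases into the regular end of the p53 coding sequence.
Trp53 with the alternative stretch: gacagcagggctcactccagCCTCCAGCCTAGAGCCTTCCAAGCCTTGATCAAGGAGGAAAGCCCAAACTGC
Trp53 without it: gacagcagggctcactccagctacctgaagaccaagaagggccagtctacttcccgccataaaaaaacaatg
In Ung, which removes uracil from DNA, alternative first exons give the nuclear form (chr5:114130503-114130625) and the mitochondrial form (chr5:114131229-114131318). Each stretch opens with its own start codon and is followed by 20 shared bases.
Ung nuclear form: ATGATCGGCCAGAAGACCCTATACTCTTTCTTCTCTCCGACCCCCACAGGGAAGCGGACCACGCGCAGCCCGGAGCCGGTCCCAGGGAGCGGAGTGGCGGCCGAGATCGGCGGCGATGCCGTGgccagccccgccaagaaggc
Ung mitochondrial form: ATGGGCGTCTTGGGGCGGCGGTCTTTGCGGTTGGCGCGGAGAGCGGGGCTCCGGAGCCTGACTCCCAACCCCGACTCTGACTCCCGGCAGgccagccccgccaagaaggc
In Sesn1, a sestrin that restrains growth signalling under stress, alternative first coding exons lie at chr10:41811022-41811300 and chr10:41887494-41887595.
Sesn1 longer form: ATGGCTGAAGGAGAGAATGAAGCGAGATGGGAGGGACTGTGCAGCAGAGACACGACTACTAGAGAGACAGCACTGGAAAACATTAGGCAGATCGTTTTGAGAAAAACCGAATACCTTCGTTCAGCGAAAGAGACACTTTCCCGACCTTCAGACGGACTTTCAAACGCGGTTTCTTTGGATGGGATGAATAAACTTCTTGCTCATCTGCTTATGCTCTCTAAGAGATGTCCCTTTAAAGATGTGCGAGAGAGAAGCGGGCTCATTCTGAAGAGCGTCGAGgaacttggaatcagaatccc
Sesn1 shorter form: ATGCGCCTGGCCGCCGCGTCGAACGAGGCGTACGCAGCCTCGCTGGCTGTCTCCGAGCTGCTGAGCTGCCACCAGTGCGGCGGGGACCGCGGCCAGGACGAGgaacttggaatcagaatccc

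To compare levels between genes, mean normalized counts were divided by the kilobases of exon sequence of the counted accessions, and values per kilobase use this length unless another is named. Among the 44 members with 1 accession, the median was 80.2 per kilobase. The 10363 genes with 1 curated accession and a mean normalized count above 10 had a median of 73.8, taken over those with a matched transcript. The 44 members were not cut at 10 and include Chek1 at 8.11. Detected genes are those above 10, and percentages of detected genes per kilobase refer to the 11058 of them with a matched transcript. Together the 52 members took 0.254% of all normalized counts.

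Both regulators of p53 were well represented. Mdm2 had a mean normalized count of 713 and Mdm4, a relative of Mdm2 that masks the activation domain of p53, one of 415. Per kilobase the ratio of Mdm2 to Mdm4 was 1.93, and it was 3.88 and 3.61 when the longest and the median-length annotated transcripts were used. Mdm2 thus ranked above Mdm4 on each length scale.

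The p53 target genes covered a wide range. Ccng1, a cyclin G that feeds back on p53, was the highest with a mean normalized count of 1179 and 336 per kilobase, above 88.9% of detected genes on that scale. Ei24, an endoplasmic reticulum protein, followed with 279 per kilobase at a mean of 644, and Btg2, an antiproliferative factor, with 186 per kilobase at a mean of 511. With the median-length transcripts this order turned, at 984 per kilobase for Ei24, 546 for Ccng1, 301 for Gadd45a and 186 for Btg2. At the low end of the targets with 1 accession were Phlda3, an inhibitor of Akt (49.8 counts, 34.7 per kilobase), and Gadd45b (21.2 counts, 16.5 per kilobase). Zmat3, an RNA-binding protein, and Trp53inp1, a cofactor of p53, had mean normalized counts of 379 and 251, but 48.6 and 46.4 per kilobase because their transcripts are long.

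The 3 members of the GADD45 family, small stress proteins that bind PCNA and p21, were of unequal level. The mean normalized counts were 216 for Gadd45a, 86.3 for Gadd45g and 21.2 for Gadd45b. Per kilobase Gadd45a was 2.19 times Gadd45g and 10.7 times Gadd45b, and the same order held with the longest and median-length transcripts.

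The sensors of damage were detected, and the effector kinases of the checkpoint hardly so. Mean normalized counts were 439 for Atm and 326 for Atr, the kinases that respond to breaks and to stalled replication. Per kilobase they came to 44.9 and 40.2, above 38.7% and 35.9% of detected genes. The ratio of Atm to Atr per kilobase was 1.12, and it was 1.11 and 3.33 with the longest and the median-length transcripts. The break-site adaptors Mdc1 and Trp53bp1 had means of 830 and 768, and 113 and 79.8 per kilobase, above 65.1% and 54.9% of detected genes. Of the 9621 exon bases of Trp53bp1, 2130 overlap Tubgcp4 on the opposite strand. H2afx, the histone H2A variant that is phosphorylated around breaks, had a mean of 162 and 117 per kilobase, above 66.1% of detected genes.

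Chek2 and Chek1, which carry the signal of Atm and Atr to the cell cycle, stood apart from these. Chek2 had a mean normalized count of 11.6 and Chek1 one of 8.11, the only member with 1 accession that did not exceed 10. Per kilobase they came to 5.11 and 2.39, above 5.37% and 1.07% of detected genes. Both lay at or under the low end of the detected genes, and each was counted under 1 accession.

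In double-strand break repair, 9 of 10 members had 1 accession, and their mean normalized counts ran from 135 for Brca1 to 455 for Prkdc. Per kilobase the Ku subunits Xrcc5 and Xrcc6, which cap broken ends, stood at 80.8 and 85.1, and their order turned with the length used (ratio of Xrcc5 to Xrcc6 0.949 with the counted transcripts, 1.48 with the longest and 0.333 with the median-length ones). Their mean normalized counts were 206 and 180. No order of the Ku subunits is therefore given.

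Prkdc, the kinase that Ku recruits, came to 36.0 per kilobase. The end-joining ligase Lig4 had a mean normalized count of 180 and 35.7 per kilobase, and its partner Xrcc4 had 137 and 89.1. Xrcc4 exceeded Lig4 on each of the length scales, by 1.12 to 3.16 times. The resection complex that tethers ends gave mean normalized counts of 334 for Rad50, 192 for Nbn and 156 for Mre11a, or 64.8, 75.9 and 47.4 per kilobase, and their order depended on the transcript length used. Brca1, which promotes homologous recombination, came to 20.6 per kilobase, the lowest of the 9 with the counted transcripts but not with the median-length ones (159), and Brca2, which acts in the same pathway, was counted under 2 accessions with a mean of 0.417.

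**Figure D3:**
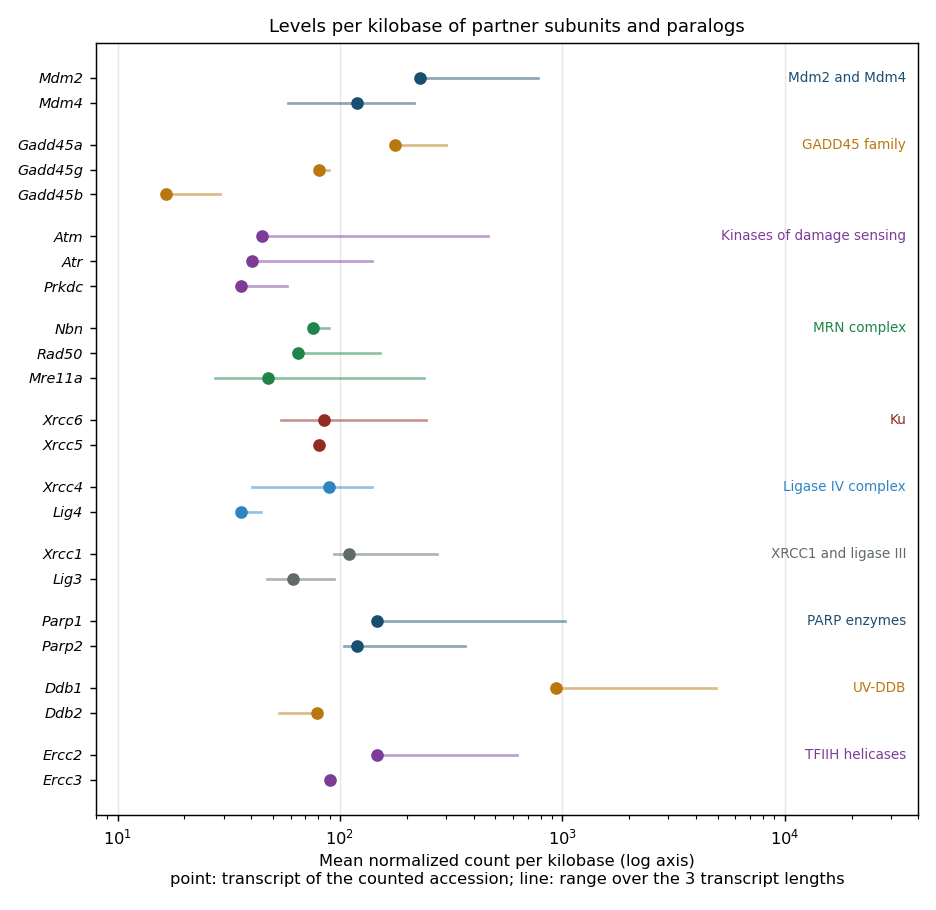
Mean normalized count per kilobase (log axis) of subunits and paralogs that work together. Points use the transcript of the counted accession and lines span the values with the counted, longest and median-length annotated transcripts; Ddb1 lies right of Ddb2 over the whole span, while the spans of the Ku and MRN subunits overlap.

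Among base excision and single-strand break repair genes, the poly(ADP-ribose) polymerase Parp1 had the highest mean normalized count at 571, with 147 per kilobase, and Parp2 had 227 and 120. Parp1 was 1.23 to 2.81 times Parp2 over the length scales. The nick-sealing pair Xrcc1 and Lig3 had mean normalized counts of 238 and 280. Per kilobase Xrcc1 was the higher on all length scales, at 110 against 61.3 with the counted transcripts. Lig1, the ligase of replication, had a mean of 14.2 under 2 accessions.

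The members also include 4 glycosylases, which cut out damaged bases. Ogg1, which removes 8-oxoguanine, had a mean normalized count of 42.8 (27.6 per kilobase), and Neil1, which removes oxidized pyrimidines, one of 25.3 (21.6 per kilobase). Ung and Mutyh, which removes adenine opposite 8-oxoguanine, had means of 0.0722 and 0.118 under 2 accessions. Apex1, the endonuclease that acts after the glycosylases, was higher than Ogg1 and Neil1 per kilobase, at 86.9 with a mean of 108, and 877 of its 1239 exon bases overlap Tmem55b on the opposite strand.

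The nucleotide excision repair genes were all above 10. Ddb1 had the highest level of all 52 members, with a mean normalized count of 4186 and 939 per kilobase, above 97.1% of detected genes. It binds ultraviolet lesions together with Ddb2 and is also the adaptor of the Cul4 ubiquitin ligases. Ddb2, the lesion-binding subunit, had a mean of 123 and 78.8 per kilobase. Per kilobase Ddb1 was thus 11.9 times Ddb2, and 17.6 and 67.8 times with the longest and the median-length transcripts.

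The other excision repair factors were lower than Ddb1 per kilobase. On the opposite strand, 585 exon bases of Ercc2 overlap Klc3, 368 of Ddb2 overlap Acp2 and 106 of Ercc1 overlap Cd3eap, and whether the counting used strand is not given. The TFIIH helicases Ercc2 and Ercc3 had mean normalized counts of 525 and 244, or 147 and 90.3 per kilobase. Ercc5, the nuclease that cuts on the 3′ side, and Ercc6, which acts at stalled RNA polymerase, had like means of 419 and 422, but 107 and 50.1 per kilobase. Xpc and Xpa, which find and verify the lesion, had means of 249 and 127, or 68.5 and 133 per kilobase. Ercc1, a partner of the nuclease Ercc4, had a mean of 20.9 under 2 accessions. Msh6, a mismatch sensor, had a mean of 262 and 61.7 per kilobase, and Pcna, the sliding clamp of replication that repair synthesis also uses, one of 669 and 441 per kilobase, above 92.2% of detected genes.

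A list of 110 further genes of the pathway held 88 with 1 accession, of which 75 had a mean normalized count above 10, and 22 with 2 or more accessions, of which 2 did (Dclre1c at 41.7 and Fancc at 23.2). That is 85.2% and 9.09%, beside 51.7% and 24.6% of all listed genes with 1 and with 2 or more accessions, and this difference was not tested. The 4 genes of the list at 0 (Eda2r, Psrc1, Apaf1 and Trp63) were all counted under 2 or more accessions.

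Among genes of the wider list with 1 accession, mismatch and nucleotide excision repair were the roles with every gene above 10. The 4 mismatch repair genes had mean normalized counts of 120 (Pms2), 437 (Msh3), 438 (Mlh3) and 447 (Pms1). All 12 nucleotide excision repair genes with 1 accession lay between 68.3 (Ercc8) and 1481, led by Rad23b, a partner of Xpc, and followed by Xab2 at 437. Of 14 break repair genes with 1 accession 8 were above 10, and the median of the 14 was 28.4, against 180 for the 9 members of that role. The lowest were Eme1 (0.879) and Exo1 (0.938), nucleases of recombination. Among genes of the list named for Fanconi anaemia, Fanca, Fanci and Fancd2 had means of 1.42, 2.24 and 4.94. Fancc had 23.2 under 2 accessions, and Fancm had 186 under 1. The highest of the 14 were Fancm and Xrcc2 (141). Under 2 or more accessions, Rad54l and Wrn had 0.0594 and 0.115.

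Among 22 further p53 targets with 1 accession, 18 were above 10. The highest were Ppm1d, a phosphatase that turns the pathway off, at 438 and 9630033F20Rik at 424. Bax, Bbc3 and Pmaip1, which promote cell death, had mean normalized counts of 99.0, 14.4 and 4.26, and Gdf15, a secreted stress signal, one of 3.14. The lowest of the 22 were Dram1 (0.805) and Cd80 (0.909). In damage sensing the highest were Rnf168 (340), a ubiquitin ligase at breaks, and Uimc1 (296), and in base excision repair Polb (414), its polymerase, and the glycosylase Smug1 (332). In translesion synthesis they were Rev3l (2047), the catalytic subunit of polymerase zeta, and Rev1 (624). The lowest genes with 1 accession in damage sensing, base excision repair, and translesion synthesis and direct reversal were named in turn. They were Clspn (3.75), an adaptor that activates Chek1, Neil3 (0.824), a glycosylase, and Mgmt (4.13), which reverses alkylation. Still lower, each under 2 or more accessions, were Timeless (0.305), Rad17 (0.703), Tdg (0.371) and Rad18 (0.344).

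**Figure D4:**
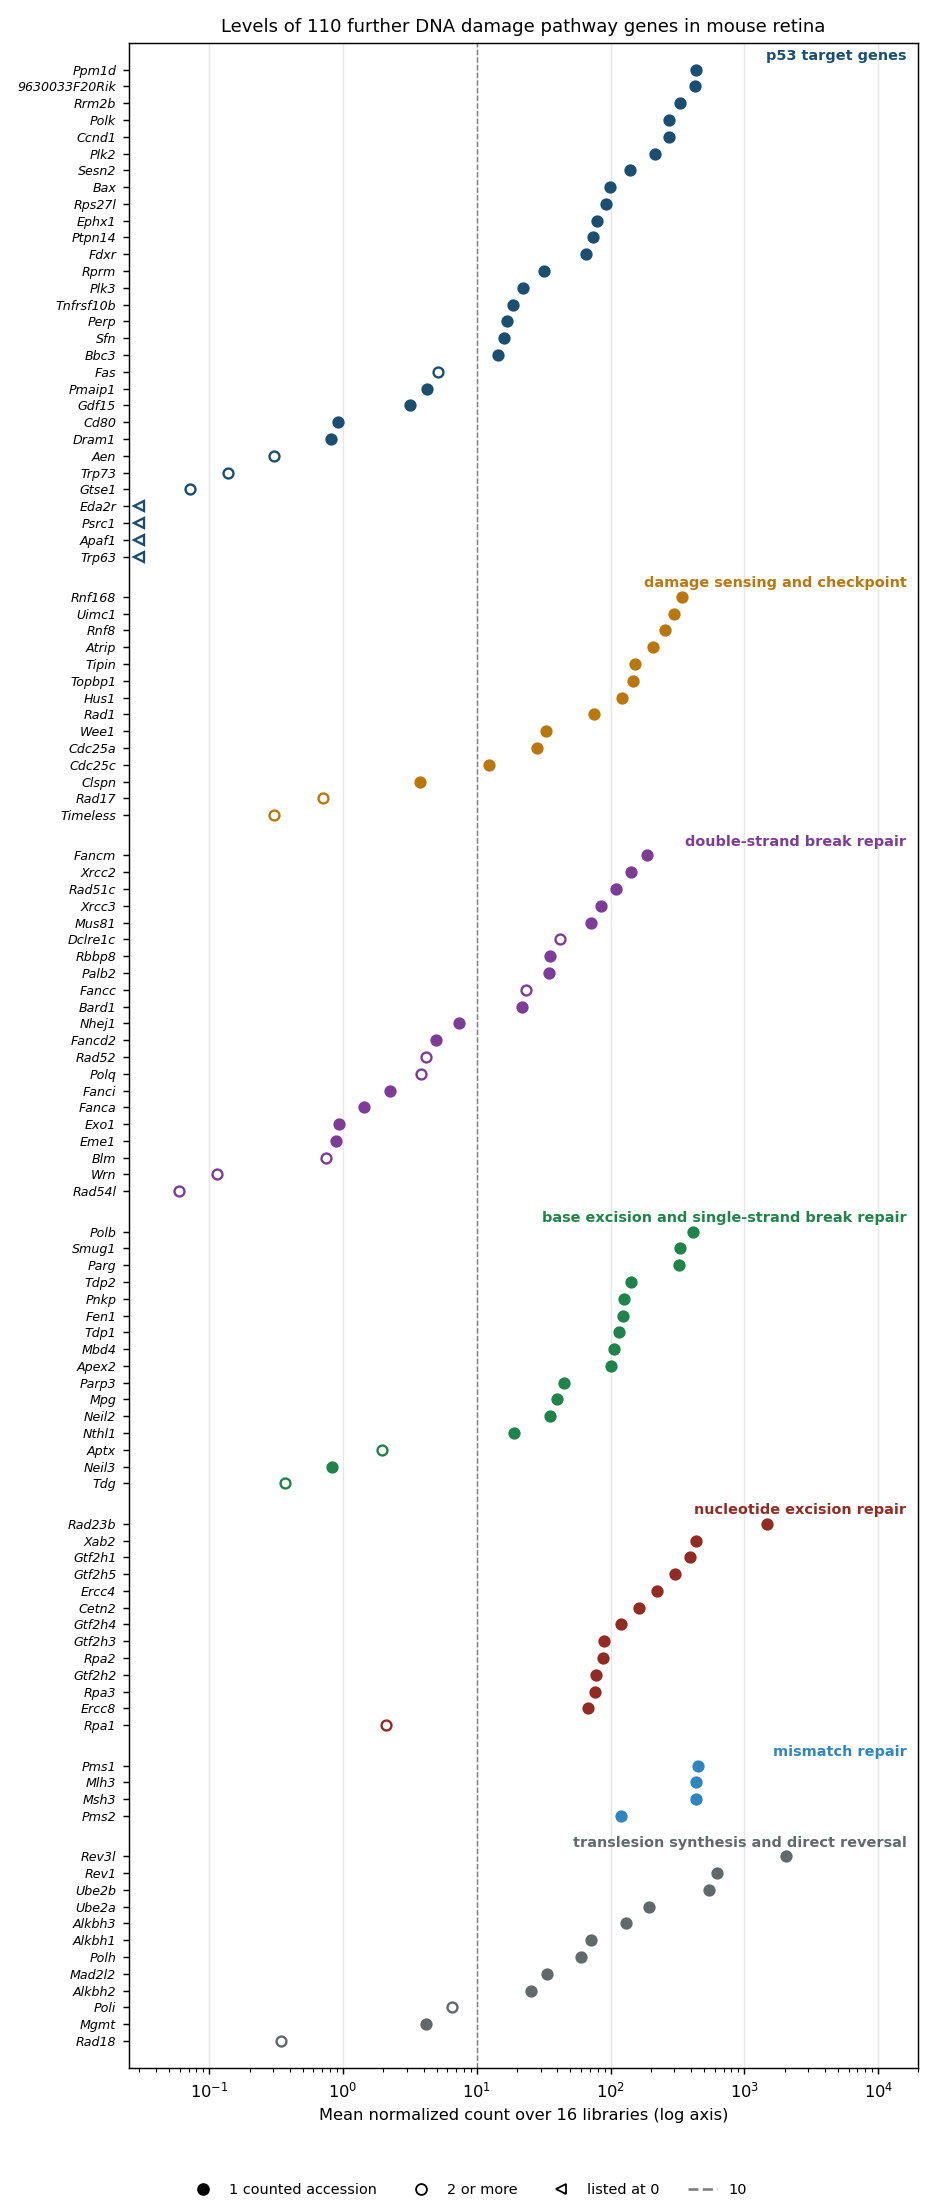
Mean normalized count over 16 libraries (log axis, not divided by length) of 110 further genes of the DNA damage pathway by role. Filled points are genes with 1 counted accession, open points genes with 2 or more and triangles genes listed at 0; 75 of 88 filled points and 2 of 22 open points lie right of the dashed line at 10.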

How the data were processed

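Total RNA (100 ng) of right-eye retinas from 8 spaceflight and 8 ground control mice went into stranded libraries, sequenced as single-end reads. After trimming (Trimmomatic), the authors placed reads with TopHat2 on an NCBI mouse build older than GRCm38. HTSeq then counted them under 31616 RefSeq or predicted transcript accessions. The HTSeq mode and strand setting, and how accessions of one gene were brought together, are not given in the sources used here. The authors then ran DESeq2 1.22.2 in R 3.5.1. Among the deposited values, the signal used here is the average of size-factor-normalized counts across the 16 libraries, 1 value a gene.

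The 32 deposited count columns (16 in each of 2 tables) carry laboratory codes that match no label, so none was used, and depth per library is not known here. The deposited log2 fold-changes, standard errors, Wald statistics and p-values are the authors' own comparison and were not used. The planned count-based test of spaceflight against ground control and its alternatives could therefore not be run. No test was made and no value has a replicate error.

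Accessions were matched to GENCODE M21 transcripts (GRCm38) for 19496 of 25905 genes and all 52 members. Exon bases held by 1 counted accession alone were computed from these transcripts, whose ends can differ from those the authors used. Levels per kilobase divide by the exon bases of the counted accessions. Of the counts tables, the accession and symbol fields were read. Members and lists were chosen with earlier results of these data known. By the rule for named genes, every member is named with its level, as are the 2 most and 2 least abundant genes of each role of a wider list (110 of 116 listed genes found, and some genes of the pathway are not reported here). Other genes named were chosen after their values were seen. The interval and percentile steps were tested on simulated data. Software was numpy 2.4.6, scipy 1.17.1, pandas 2.3.3 and, for plots, matplotlib 3.10.9, under Python 3.11.15.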

Additional observations from a re-analysis of the deposited data

How the results depend on the processing

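The median member lay at percentile 54.9 of the 12374 genes with a mean normalized count above 10. It lay at 46.5 and 46.4 when levels were divided by the length of the longest or the median-length annotated transcript, at 71.6 among all genes above 0, and at 65.2 among genes above 1. With alternatives chosen after seeing the data, it lay at 49.0 when levels were divided by the exon bases held by 1 accession alone (51 members), at 58.8 with only the 44 members counted under 1 accession, and at 52.9 among genes with 1 accession. Dividing by the longest transcript moved 12 members by more than 20 percentile points. No paired analysis was possible because the count columns carry laboratory codes and no replicate number. The planned test between the groups and its alternatives (another tool, other size factors, no filter, another threshold, a replicate block, a correction for GC and length, and leaving out each library) were not run for the same reason. Depth per library is not known here, so no interval is given. Whether the level of a gene with 2 accessions covers reads shared by both was not tested.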

Other observations

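Retinal genes counted under 2 accessions had levels both near 1 and above 1000. Rlbp1, the retinaldehyde-binding protein of Müller glia, had a mean normalized count of 1.39 under 2 accessions, while the Müller glia gene Glul, counted under 1, had 17455. Nrl, the transcription factor of rod fate, had 88.9 under 2 accessions. Trpm1, the cation channel of ON bipolar cells, had 2866, also under 2. The exon bases held by 1 accession alone were 172 of 2224 in Rlbp1, 82 of 2504 in Nrl and 5063 of 6851 in Trpm1.

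Rpa1, the large subunit of the complex that coats single-stranded DNA, had a mean normalized count of 2.08 under 2 accessions, and its partners Rpa2 and Rpa3, counted under 1, had 88.0 and 76.2. Rad17, which loads the checkpoint clamp, had 0.703 under 2 accessions, and the clamp subunit Hus1, counted under 1, had 121.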
